A study of Mus musculus with 2 samples.

Results

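The 39 protein-coding Hox genes of the mouse were examined as 1 family. They were found by name, as members of the Hoxa, Hoxb, Hoxc and Hoxd clusters, in RefSeq's gene table for GRCm38.p6 (mm10), and they are 39 of its 21900 protein-coding genes. All 39 had at least 5 CpGs that could be compared and were tested, as were 15244 protein-coding genes in all. The clusters hold 11 Hoxa, 10 Hoxb, 9 Hoxc and 9 Hoxd genes.

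The data are CpG methylation tables of 2 haploid embryonic stem cell lines of the mouse. The background is 129Sv for A129-2 and C57BL/6 for AOS-14. Per the labels, both were derived by cell sorting from AG-haploid embryos and grown in embryonic stem cell medium, no treatment is named, and each line has 1 library. Line, strain background and library therefore cannot be told apart, and whether the cells carried stem cell markers could not be checked from methylation alone.

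Hox genes encode homeodomain transcription factors that give cells their position along the head-to-tail axis. Genes of the same paralogue group sit at the same place in the 4 clusters, and their order along the chromosome follows the order in which they are used, with low-numbered groups toward the head (anterior) and high-numbered groups toward the tail (posterior). In embryonic stem cells the clusters are known as long stretches of CpG-rich chromatin held by Polycomb proteins, and CpG-rich DNA of this kind is usually poorly methylated.

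The level of a CpG is the percentage of its reads that were methylated, and a gene or interval has the mean level of its CpGs that were read at least 10 times in each library. Where 2 values are given together without naming the lines, A129-2 comes first and AOS-14 second. Within the clusters 2843 CpGs met this minimum, and their median depth was 75 and 96 reads. Of these, 2243 lay in Hox genes and 600 between them, and 228 lay in more than 1 Hox gene, because Hoxa3 spans Hoxa4, Hoxa5 and Hoxa6, Hoxb3 spans Hoxb4, Hoxd3 spans Hoxd4, and Hoxd10 overlaps Hoxd11. Across the series 1030368 CpGs were compared, and the libraries held 153035567 and 178315194 reads at CpGs in all.

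Promoter sequences show how the number of CpGs differs among these genes. The RefSeq promoter table (GRCm38.p6) gives a start for 22 of the 39 genes. The Hoxd4 window (chr2:74721728-74722027, plus strand) is shown because its promoter had the highest level of the Hox promoters tested. Hoxa6 (chr6:52208623-52208922, minus strand) and Hoxb1 (chr11:96365508-96365807, plus strand) are shown because their wider promoter windows, described below, were called different between the lines. In the 300 bases printed for Hoxa6 the difference was -0.92 points and was not called. Hoxa13 (chr6:52260831-52261130, minus strand) stands for the CpG-dense, poorly methylated promoters. Each window has 300 bases, written 5′ to 3′, and capitals mark the CpGs that were compared.
Hoxd4: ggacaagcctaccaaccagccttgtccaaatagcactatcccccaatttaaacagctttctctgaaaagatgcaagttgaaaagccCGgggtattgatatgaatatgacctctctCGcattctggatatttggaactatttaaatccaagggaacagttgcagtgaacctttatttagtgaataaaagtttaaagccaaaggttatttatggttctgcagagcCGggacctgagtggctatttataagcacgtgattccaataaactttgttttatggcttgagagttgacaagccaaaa
Hoxa6: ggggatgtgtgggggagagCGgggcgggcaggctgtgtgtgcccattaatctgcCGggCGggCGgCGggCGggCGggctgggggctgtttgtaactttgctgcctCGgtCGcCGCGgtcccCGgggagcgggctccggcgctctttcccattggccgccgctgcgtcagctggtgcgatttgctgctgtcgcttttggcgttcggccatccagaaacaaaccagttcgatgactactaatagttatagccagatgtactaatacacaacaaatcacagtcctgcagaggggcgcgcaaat
Hoxb1: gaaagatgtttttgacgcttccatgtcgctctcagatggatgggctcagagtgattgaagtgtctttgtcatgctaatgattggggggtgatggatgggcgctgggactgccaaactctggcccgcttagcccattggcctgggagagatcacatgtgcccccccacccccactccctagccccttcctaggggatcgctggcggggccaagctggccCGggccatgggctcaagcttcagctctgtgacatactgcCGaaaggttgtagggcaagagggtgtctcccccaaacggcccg
Hoxa13: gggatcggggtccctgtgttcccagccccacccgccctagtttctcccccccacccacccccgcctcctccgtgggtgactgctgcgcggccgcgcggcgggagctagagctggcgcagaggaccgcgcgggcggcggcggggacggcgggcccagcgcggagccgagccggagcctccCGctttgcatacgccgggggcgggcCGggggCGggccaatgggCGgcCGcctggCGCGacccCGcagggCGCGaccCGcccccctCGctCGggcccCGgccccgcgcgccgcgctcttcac

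The Hoxd4 window held 4 CpGs, of which 3 were compared. They lay 164, 135 and 27 bases before the start and had levels of 18.5%, 21.7% and 33.3% in A129-2 and 31.2%, 26.1% and 42.1% in AOS-14. In the Hoxa6 window 12 of 26 CpGs were compared. The 2 of them in a CCGG motif reached 6.99% and 18.6% in A129-2 and 15.5% and 18.9% in AOS-14, while the other 10 stayed at or below 4.02% in both lines. The Hoxa13 window held 45 CpGs, and 14 were compared. Outside CCGG, no compared CpG of the Hoxa13 window was above 2.78% in either line. The Hoxb1 window had 2 of 10 CpGs compared, 1 at 14.3% and 18.2% and 1 at 3.23% and 16.7%.

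CCGG, which reads the same on both strands, is where the enzyme of reduced representation bisulfite sequencing cuts, and the series title names that method while the labels' protocols describe capture. It was present in 19 of 24 Hox promoter windows (79.2%) and in 62.2% of 21263 promoter windows of protein-coding genes. The 708 compared cluster CpGs in CCGG had mean levels of 13.7% and 18.0%, and the 2135 others had 2.03% and 2.88%. Of 20 mitochondrial CpGs, the 7 in CCGG had means of 8.72% and 10.1%, and the 13 others 0.391% and 0.3796%. Between the strands of the same CpG, levels at cluster CpGs had a Pearson r of 0.26 and 0.35 in CCGG (165 and 167 CpGs), against 0.58 and 0.68 outside it (1810 and 1937 CpGs). These CpGs share a library and a depth, so the r values are descriptions. Levels are therefore given below with and without CCGG. The part of library preparation in the CCGG levels was not tested.

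The Hox clusters were poorly methylated in both lines. In Hoxa the mean level was 4.11% and 5.64%. It was 5.98% and 7.91% in Hoxb, 4.83% and 6.99% in Hoxc, and 4.96% and 6.35% in Hoxd, so A129-2 had the lower level in each cluster. All compared CpGs of the series averaged 9.48% and 14.998%. Outside CCGG the same order of lines held in every cluster, from 1.52% and 2.30% for Hoxa to 2.72% and 3.74% for Hoxb, against 4.74% and 8.49% in the series. No methylated read was seen at 44.0% of cluster CpGs outside CCGG in A129-2 and at 33.8% in AOS-14.

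**Figure D1:**
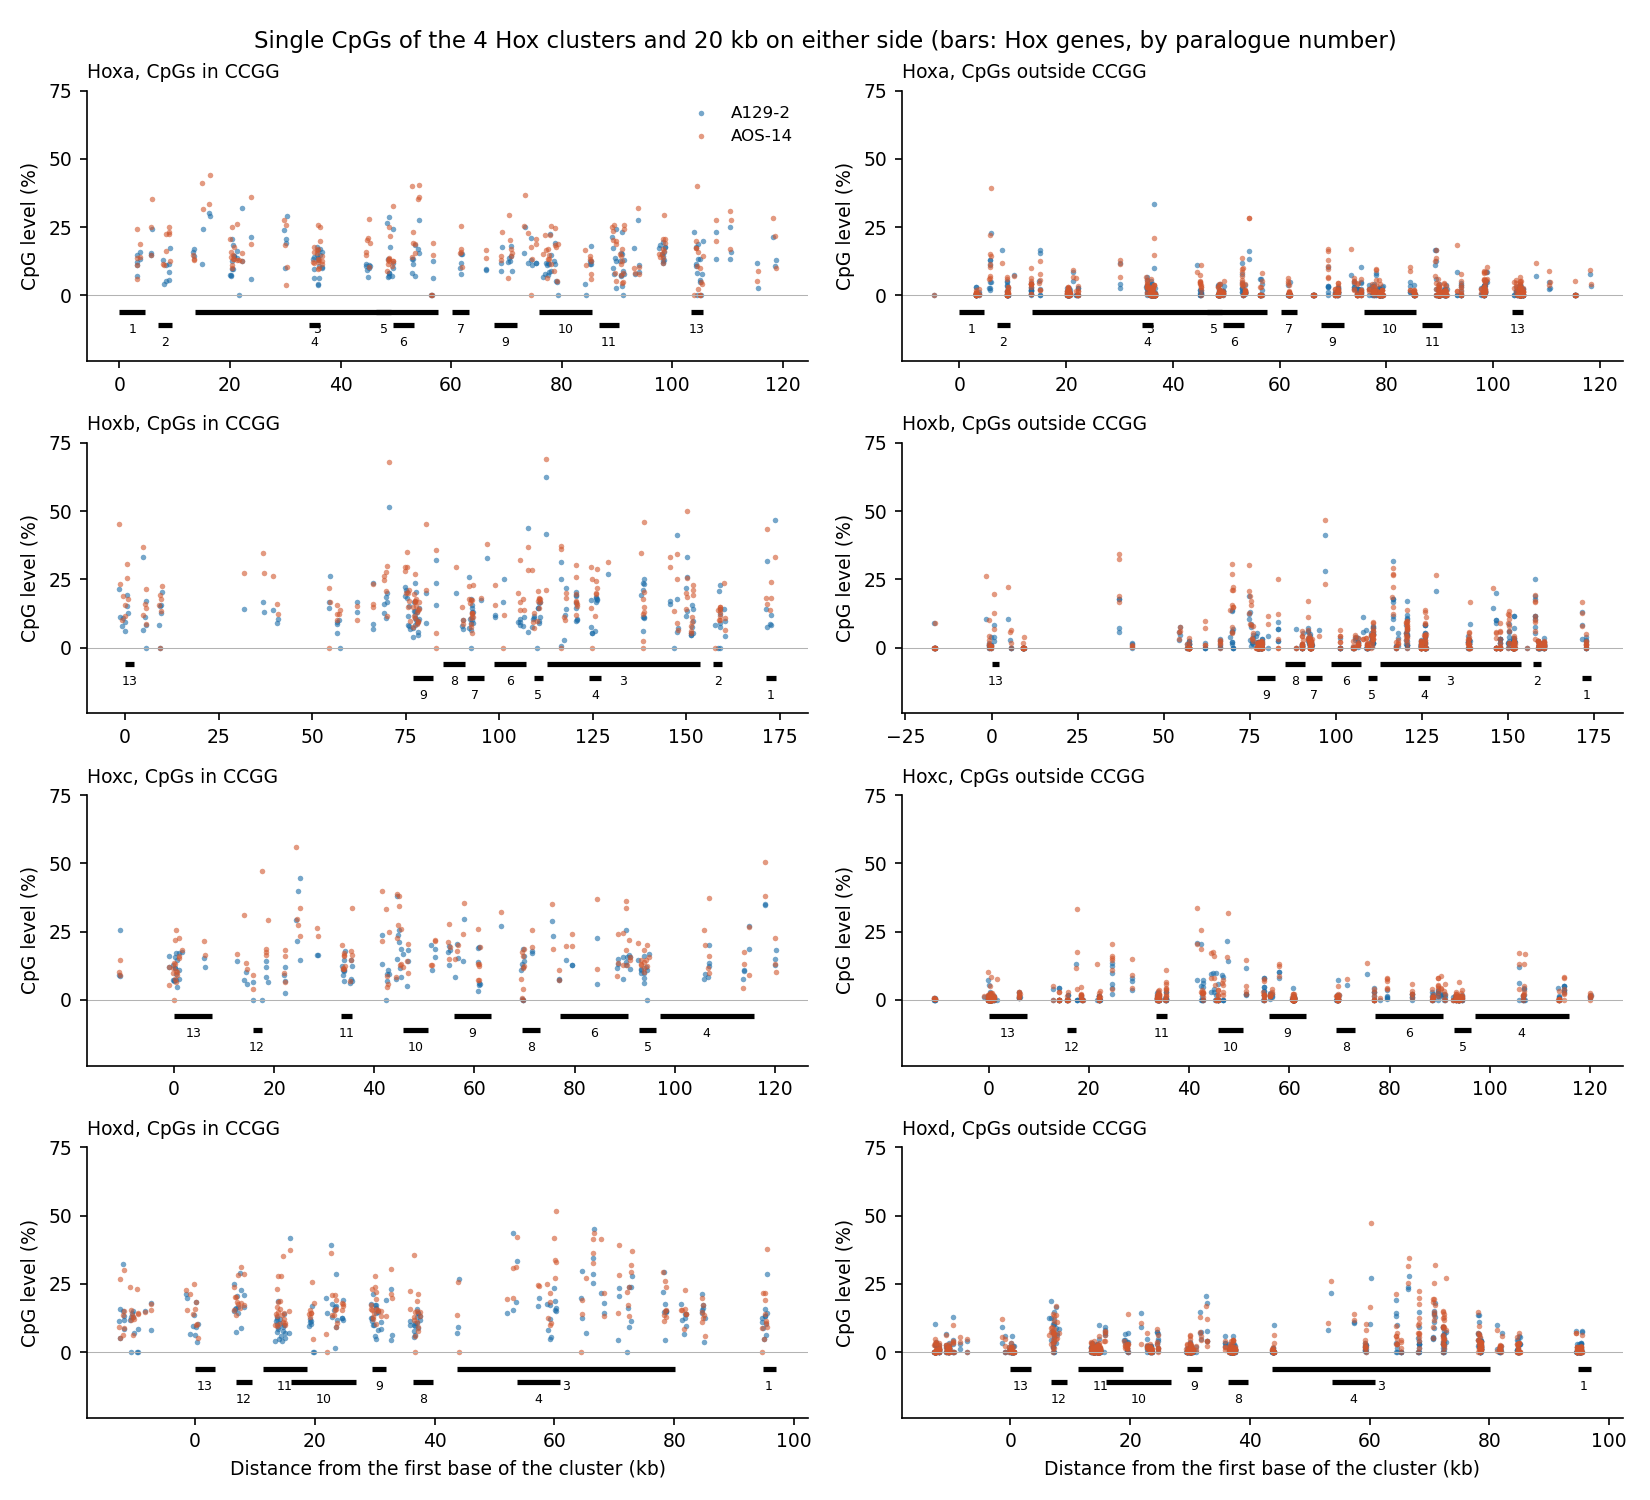
Level of each compared CpG (percent) against distance from the first base of the cluster (kb), for CpGs in CCGG on the left and outside it on the right. Blue points are A129-2 and red points AOS-14, and black bars are Hox genes with their paralogue numbers. Most CpGs outside CCGG lie near 0, and those in CCGG spread up to 69.1%.

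Levels were lower where compared CpGs lay closer together. Cluster CpGs outside CCGG with 0 to 4 compared CpGs within 100 bp had mean levels of 5.35% and 7.88%. With 5 to 14 neighbours the means were 2.13% and 2.96%, and with 15 or more they were 0.815% and 1.14%. CpGs in CCGG went from 16.0% and 22.1% to 11.5% and 14.9% over the same classes.

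By paralogue position, anterior genes had the highest mean levels. CpGs of the 8 genes of groups 1 to 3 averaged 5.72% and 7.59%. The 15 central genes of groups 4 to 8 averaged 3.997% and 5.65%, and the 16 posterior genes of groups 9 to 13 averaged 3.64% and 4.83%. Posterior minus anterior was -2.08 points in A129-2 and -2.76 in AOS-14, and -1.41 and -1.82 points outside CCGG. When each gene counted once, whatever its number of CpGs, the differences were -1.27 and -1.21 points. Anterior levels were then 5.47% and 7.05% and posterior levels 4.205% and 5.84%. Hoxa3, Hoxb3 and Hoxd3 hold 723 of the 881 anterior CpGs. Across the 39 genes, which share a library, Spearman's rho between level and paralogue number was -0.33 in A129-2 and -0.27 in AOS-14. The same measure against the share of a gene's CpGs in CCGG was 0.78 and 0.79.

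Groups did not follow their number step by step. Group 12 was highest at 8.16% and 9.27%, through Hoxd12, since Hoxc12, its other member, was the lowest gene of the family. Group 3, with Hoxa3, Hoxb3 and Hoxd3, had 5.97% and 8.05%. Group 6, with Hoxa6, Hoxb6 and Hoxc6, had 5.35% and 8.66%. Group 8 was lowest at 2.62% and 3.36%. Members of a group could be far apart, as in group 13, where AOS-14 levels ran from 2.59% in Hoxd13 to 18.9% in Hoxb13.

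**Figure D2:**
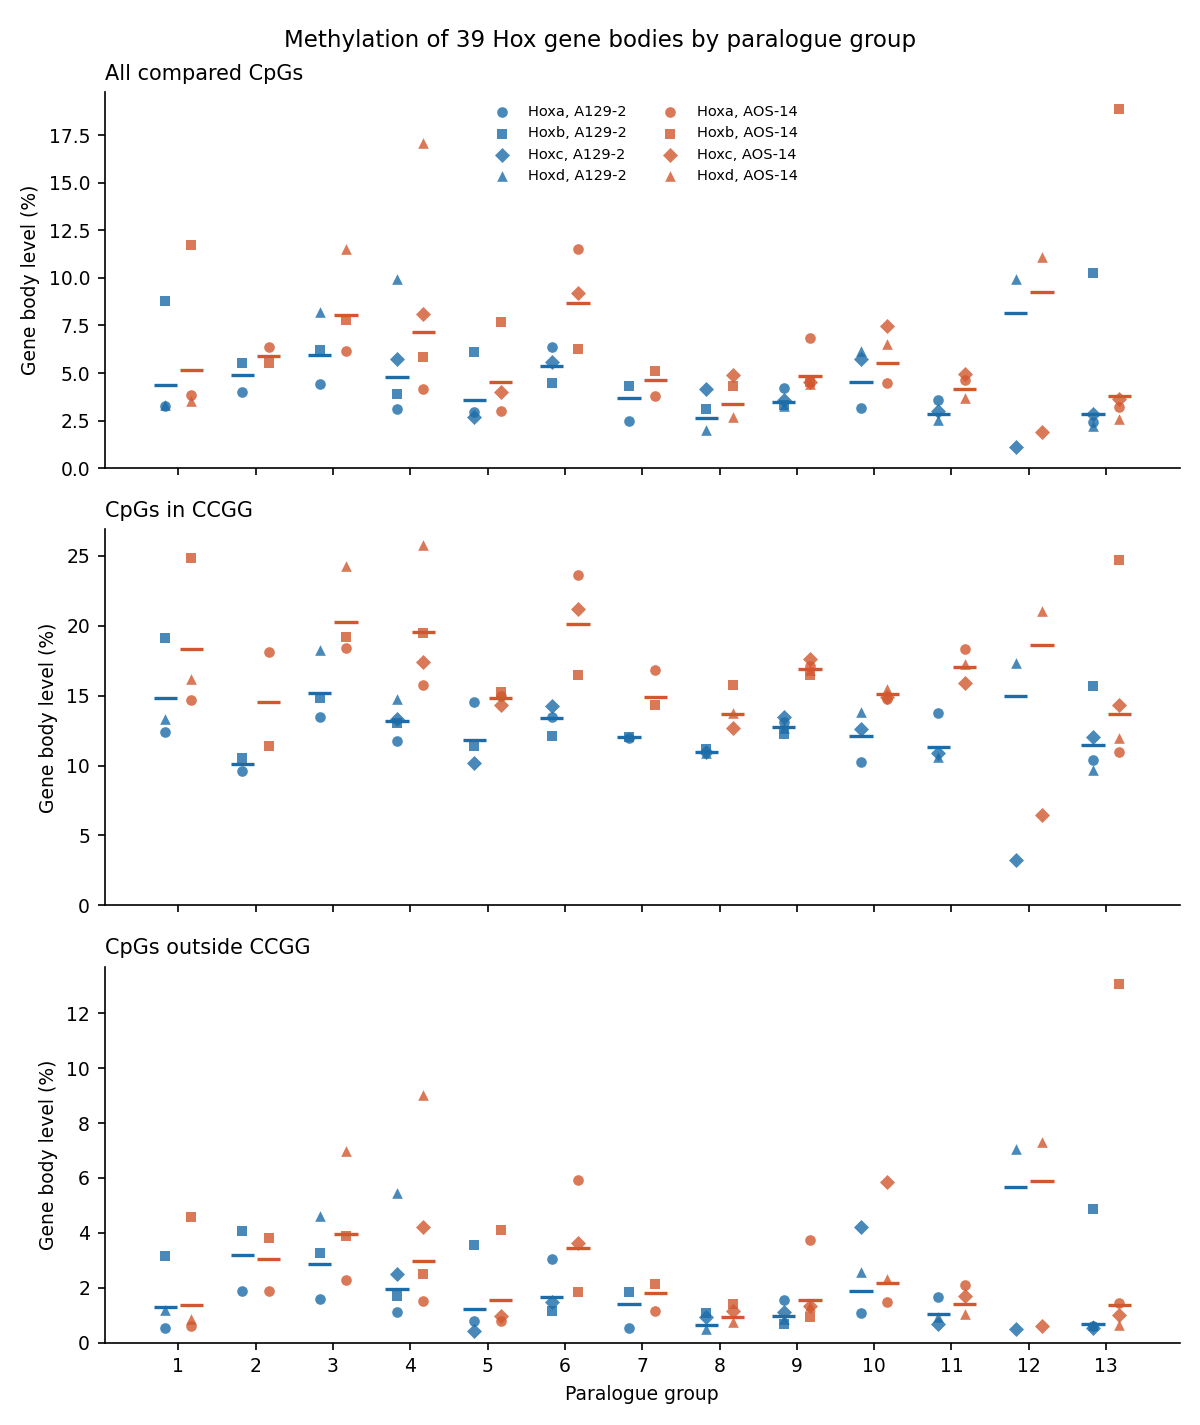
Gene body level (percent) of the 39 Hox genes by paralogue group, for all compared CpGs, CpGs in CCGG and CpGs outside CCGG. Symbols are genes, coloured by line, and short lines are means over the CpGs of the group. Hoxb13, Hoxd4 and Hoxd12 stand above the other members of their groups.

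The anterior genes specify the hindbrain and neck. Hoxb1, which marks a single hindbrain segment, had a level of 8.79% and 11.7% over 17 CpGs. Hoxd3 had 8.21% and 11.5% over 190 CpGs. Its CpGs outside CCGG were at 4.63% and 6.99%, and its difference was -3.33 points. By the mean over all compared CpGs, Hoxb2 was the single Hox gene not lower in A129-2, at 5.53% in both lines. Weighted by reads, Hoxb2 was lower, at 3.16% and 3.61%, and the posterior gene Hoxa11 was higher, at 7.52% and 7.24%. The other 5 anterior genes lay between 3.27% and 6.23% in A129-2 and between 3.52% and 7.78% in AOS-14.

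Among the central genes, which pattern the neck and trunk, Hoxd4 had the highest level, 9.92% and 17.1% over 27 CpGs. Hoxa6 followed at 6.35% and 11.5% over 19 CpGs, and Hoxc6 had 5.55% and 9.23% over 44 CpGs. Hoxd8 was the lowest of these genes, at 2.02% and 2.67% over 96 CpGs. The remaining 11 central genes ran from 2.46% to 6.11% in A129-2 and from 3.03% to 8.13% in AOS-14.

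The posterior genes pattern the lumbar to tail region, the limbs and the urogenital tract. Hoxb13, known from the tail bud and the prostate, was the highest Hox gene, at 10.3% and 18.9%, over 6 CpGs. Those CpGs, 3 of them in CCGG, lay between chr11:96194846 and chr11:96194970, a short stretch of a gene of 2.295 kb. Hoxb13 lies apart from the rest of its cluster, past an interval with 132 compared CpGs. Hoxd12 had 9.92% and 11.1% over 36 CpGs, and outside CCGG 7.06% and 7.31%, the highest A129-2 value of the 39 genes outside CCGG. The lowest were Hoxc12 with 1.12% and 1.91% over 9 CpGs, Hoxd13 with 2.21% and 2.59% over 29, and Hoxa13, a gene of the distal limb, with 2.43% and 3.22% over 70. The other 11 posterior genes lay between 2.52% and 6.16% in A129-2 and between 3.65% and 7.45% in AOS-14.

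Between the lines, 38 of 39 Hox gene bodies had a lower level in A129-2, as did 94.9% of all tested gene bodies. The median level was 3.92% and 4.94%, against 6.56% and 9.68% over all tested genes, and the median difference was -1.20 points against -2.97. A gene was called different at an adjusted p under 0.05 (Fisher's exact test on summed reads, two-sided, Benjamini-Hochberg over all genes) with a difference of at least 5 points. By this rule 3 Hox genes were lower in A129-2 and 0 higher, where 31.4% of all gene bodies were lower and 0.0459% higher. A fall of 5 points was out of reach for the 20 Hox genes (51.3%) whose AOS-14 level was under 5%, a level found in 24.6% of all genes. With no minimum size, 28 were lower and 0 higher, against 77% and 0.604% of all genes. The tests and intervals compare the reads of 2 libraries and cover counting error only, and reads without molecular identifiers are not independent molecules.

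**Figure D3:**
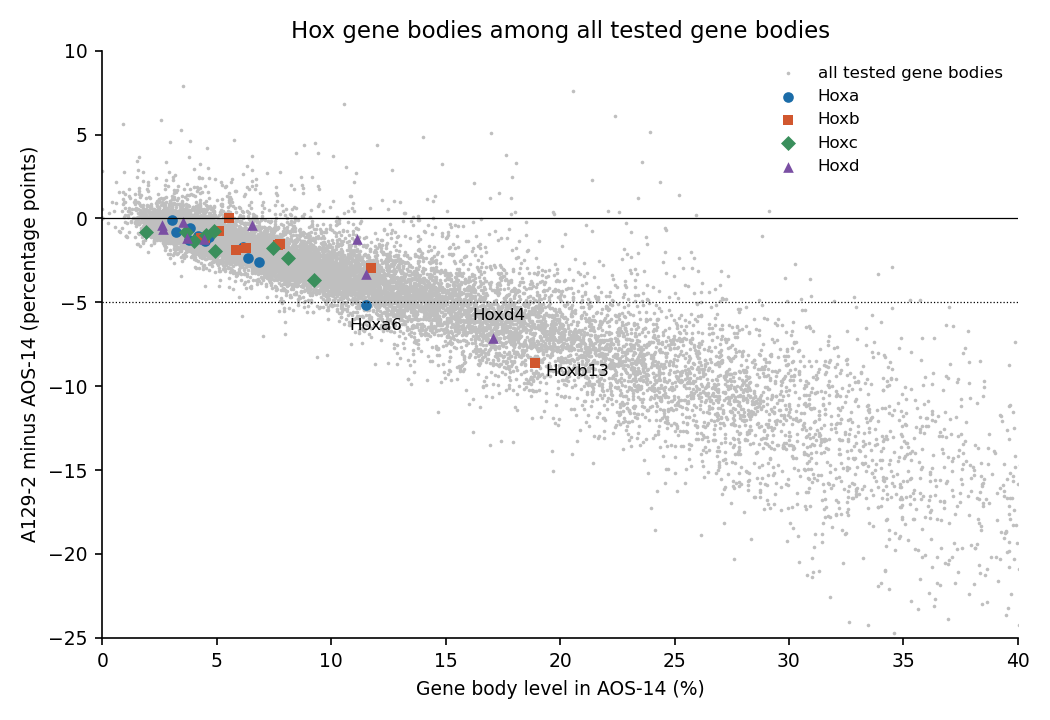
Difference in gene body level (A129-2 minus AOS-14, percentage points) against the AOS-14 level (percent). Grey points are all tested gene bodies within the axes, coloured symbols the Hox genes, and the dotted line marks a fall of 5 points. Hoxb13, Hoxd4 and Hoxa6 lie below that line.

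The 3 genes were Hoxb13, Hoxd4 and Hoxa6. Hoxb13 differed by -8.62 points, with 6 of 6 CpGs lower in A129-2 (Fisher's exact test, adjusted p 5.82e-21). Those CpGs lie in a short stretch, and the rest of the gene was not compared. Hoxd4 differed by -7.15 points, with 24 of 27 CpGs lower (Fisher's exact test, adjusted p 3.26e-18). Hoxa6 differed by -5.16 points, with 17 of 19 CpGs lower and 0 higher (Fisher's exact test, adjusted p 3.82e-06). Every CpG of Hoxd4 also lies in Hoxd3, and every CpG of Hoxa6 in Hoxa3, so these differences are not separate from those of the longer genes. Weighted by reads, the Hoxa6 difference was -3.27 points, which ends its call and leaves Hoxb13 and Hoxd4. Exact 95% binomial intervals of the read-weighted levels use the same reads as the tests and add no separate support. They did not overlap for any of the 3 genes. For Hoxb13 they were 8.03% to 10.4% in A129-2 and 17.3% to 20.7% in AOS-14. For Hoxd4 they were 7.94% to 9.78% and 14.4% to 16.9%, and for Hoxa6 7.60% to 9.46% and 10.8% to 12.8%.

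Outside CCGG, 33 of 38 Hox genes had a lower mean in A129-2 and 5 a higher one, where 89.1% of all genes had a lower one. By the rule above, 0 of the 38 were called, where 17.2% of all genes were lower and 0.0803% higher. With no minimum size 19 were lower and 0 higher, against 63.6% and 1.3% of all genes. Hoxd4 had 5.45% and 9.01% (Fisher's exact test, adjusted p 2.86e-07), and Hoxa6 had 3.06% and 5.92% (Fisher's exact test, adjusted p 7.16e-04). Hoxb13 kept 3 CpGs, too few for the test, with a mean of 4.87% and 13.1%. Hoxd4 starts at chr2:74721978, but its first compared CpG was at chr2:74725515, so its first part was not seen. Within the run of compared CpGs, those toward both ends had higher levels than most of those between them, in both lines.

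**Figure D4:**
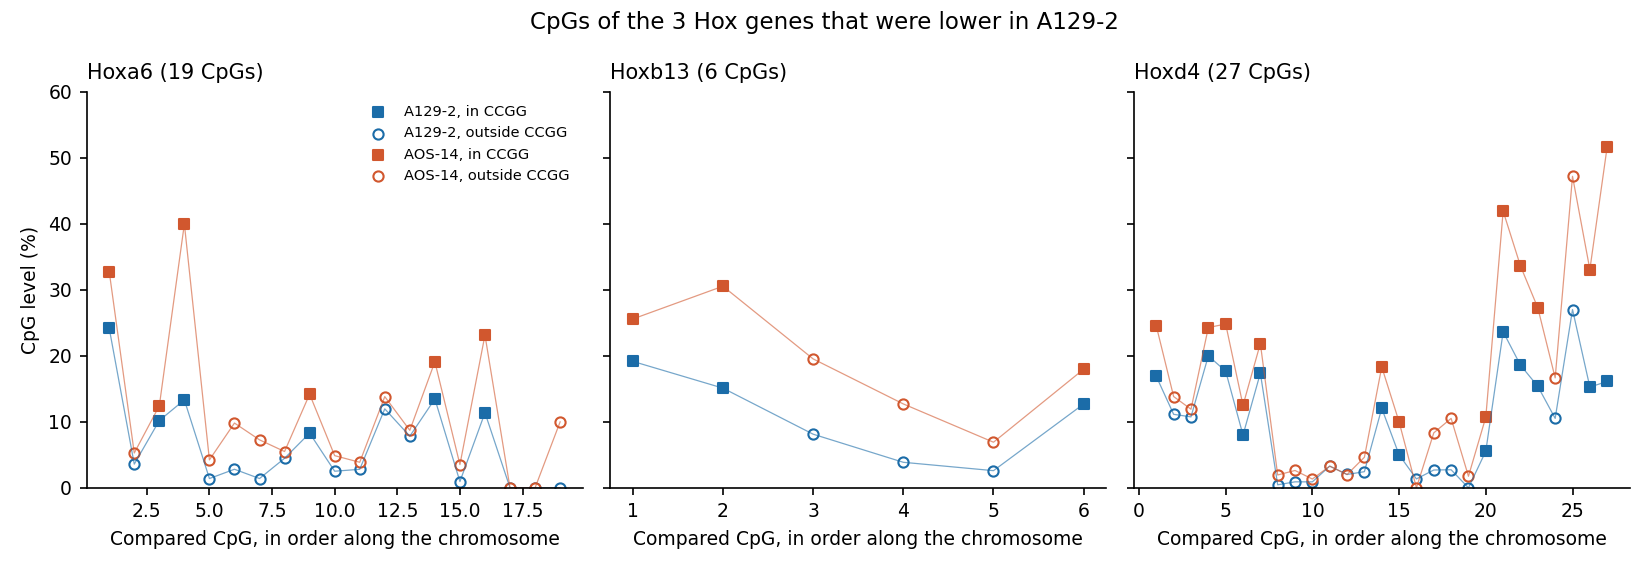
Level (percent) of each compared CpG of Hoxa6, Hoxb13 and Hoxd4 in order along the chromosome, in A129-2 (blue) and AOS-14 (red). Filled squares are CpGs in CCGG and open circles the others. All 6 CpGs of Hoxb13 are lower in A129-2.

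CpGs between Hox genes had higher levels than CpGs within them. Gene bodies averaged 4.49% and 5.99%, and intervals 6.60% and 9.06%. Gene body minus interval was -2.11 and -3.07 points, and -0.92 and -1.85 points outside CCGG. The direction held in Hoxa, Hoxb and Hoxc in both lines. In Hoxd, gene bodies had 4.93% and 6.45% and intervals 5.18% and 5.74%, so the direction differed between the lines. Outside CCGG, Hoxd gene bodies had 2.28% and 2.98% and intervals 2.27% and 2.05%, so gene bodies were not below intervals in either line.

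**Figure D5:**
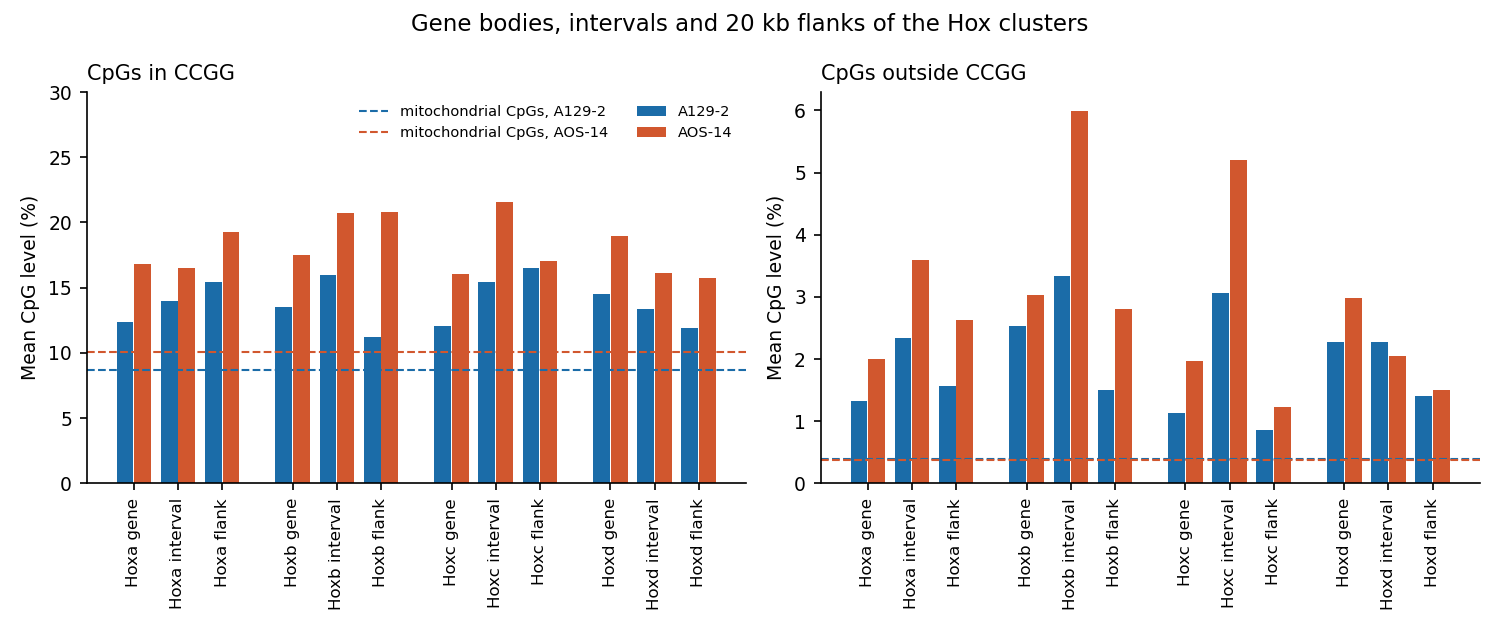
Mean CpG level (percent) of gene bodies, intervals and 20 kb flanks of each Hox cluster, for CpGs in CCGG and outside it, in A129-2 (blue) and AOS-14 (red). Dashed lines are the mitochondrial CpGs. Outside CCGG, the intervals of Hoxb and Hoxc are highest, at 6.00% and 5.20% in AOS-14.

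Of 29 intervals, 18 had at least 5 compared CpGs, and 2 were lower in A129-2 with 0 higher, where 56.2% of all intervals between neighbouring genes were lower and 0.159% higher. Outside CCGG, 1 of 18 was lower and 0 higher, where 43.2% of all intervals were lower and 0.307% higher. Hoxc12-Hoxc11, which holds Hotair, had 6.66% and 11.9% over 52 CpGs (Fisher's exact test, adjusted p 1.38e-17), and 2.54% and 6.02% outside CCGG, under the 5 points asked. Its difference of -5.20 points also missed 5 points with a minimum of 5 reads (-4.82), with a minimum of 20 reads (-3.61) and weighted by reads (-3.56). Hotair itself, a long noncoding RNA gene studied for its links to Polycomb, had 18.1% and 22.9% over 11 CpGs.

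Falls just under 5 points were seen in Hoxc11-Hoxc10, at 9.61% and 14.5%, and Hoxb13-Hoxb9, at 7.14% and 11.6%. Weighted by reads, these differences were -5.45 and -5.22 points and both were called. By that measure 3 Hox intervals were lower. No share of all intervals is given for calls weighted by reads, so this count cannot be set against the genome. The highest levels of any interval rested on few CpGs. Hoxb5-Hoxb3 had 52.0% and 45.1% over 2 CpGs, Hoxb7-Hoxb6 had 34.0% and 36.1% over 3, and Hoxd13-Hoxd12 had 17.1% and 16.5% over 4. These 3 were not tested. No CpG was compared in 6 of the intervals. With no minimum size 9 intervals were lower and 0 higher, against 77.8% and 0.924% of all intervals.

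The 20 kb flanks of the clusters averaged 4.57% and 5.86% over 213 CpGs. Of these CpGs, 119 lay on the posterior side of Hoxd, which holds Evx2. The anterior sides of Hoxa, Hoxb and Hoxd had 1, 0 and 0. Cluster minus flanks was 0.36 and 0.78 points. The sign turned with 10 kb flanks, at -1.05 and -1.74 points, and with 50 kb flanks, at -0.64 and -1.32 points, so no direction is given for the clusters against their surroundings.

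Promoter windows ran from 1 kb before to 0.5 kb after the start. They were tested at 17 of 24 Hox starts, all in Hoxa and Hoxd except Hoxb1. At 2 of them the level was lower in A129-2 and at 0 higher, where 2.48% of all promoters were lower and 0.0682% higher. The Hoxa6 promoter had 6.43% and 11.7% over 33 CpGs (Fisher's exact test, adjusted p 2.43e-14), and part of this window lies in the gene body described above. Its difference of -5.31 points was -3.71 weighted by reads and -4.99 with a minimum of 20 reads. In the 300-base window it was -0.92 (Fisher's exact test, adjusted p 0.110), and each of these ends the call. The Hoxb1 promoter had 12.997% and 19.1% over 6 CpGs (Fisher's exact test, adjusted p 0.0321). Hoxd4 had the highest promoter level, 23.5% and 26.8% over 6 CpGs. Its difference was -3.30 points, but -5.51 weighted by reads, which met the rule (Fisher's exact test, adjusted p 0.0139). By that measure the Hoxb1 and Hoxd4 promoters were lower, and no share of all promoters is given for it. The median of the 17 was 2.84% and 4.32%, against 2.75% and 3.44% over all promoters. Outside CCGG, 0 of 15 were called, where 0.877% of all promoters were lower and 0.0548% higher. With no minimum size and all CpGs, 5 of 17 were lower and 0 higher, against 26.3% and 0.605% of all promoters.

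At single CpGs, a call needed an adjusted p under 0.05 as well as 25 points of difference. Of 2843 cluster CpGs, 7 were lower in A129-2 and 0 higher, where 4.08% of all CpGs were lower and 0.0297% higher, and all 7 were in CCGG. The largest difference was at chr15:102938631 beside Hoxc12, with 0% and 47.4%, from 12 and 19 reads. In the part shared by Hoxd3 and Hoxd4, the CpG at chr2:74728529 had 16.1% and 51.7%. The others named were chr15:102963445 between Hoxc11 and Hoxc10 with 0% and 33.3%, chr6:52179248 in Hoxa3 with 5.88% and 35.9%, chr2:74704753 in Hoxd8 with 5.56% and 35.5%, and chr11:96341993 in Hoxb3 with 5.71% and 34.2%. The highest AOS-14 level was at chr11:96306737, between Hoxb5 and Hoxb3, with 62.3% and 69.1%.

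With a difference of at least 10 points, 38 cluster CpGs were lower and 2 higher, where 11.8% of all CpGs were lower and 0.102% higher. Of the 38, 26 were in CCGG, beside 16.7% of all CpGs in CCGG that were lower and 0.0862% higher. The other 12 were outside it, beside 9.28% and 0.11% of all CpGs outside CCGG. Of those 12, 6 lay in Hoxb13-Hoxb9, which has 83 compared CpGs outside CCGG. Most of these 6 lay between chr11:96231322 and chr11:96231405 at similar depth, so they can share reads. Mir196a-1, a microRNA gene in Hoxb13-Hoxb9, was singled out after its values were seen. The CpGs within 1 kb of it had 10.9% and 24.6% over 10 CpGs, and 2.96% and 19.4% over the 7 outside CCGG. None of the 38 lower CpGs lay in this window, and the window was not tested. Weighted by reads, the 10 CpGs had 14.8% and 19.4%, a difference of -4.59 points against -13.7 points between the means.

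Genes that regulate or work with Hox genes were compared by the same rule, from a list of 61, of which 60 were tested. In all, 13 were lower in A129-2 and 0 higher, beside the 31.4% and 0.0459% of all gene bodies. The median levels were 5.54% and 7.71%. Polycomb genes, whose products keep Hox genes silent, were lower in 2 of 16, Ring1 at 14.5% and 25.2% and Cbx8 at 18.2% and 26.8%. Trithorax and MLL genes, whose products keep Hox genes active, were lower in 5 of 10. They included Kmt2a at 10.99% and 18.5%, Kmt2d at 11.3% and 18.7%, Ash1l at 8.48% and 15.03%, and Ash2l at 5.25% and 10.4%. Of the TALE cofactors, homeodomain proteins that bind DNA with Hox proteins, 2 of 9 were lower, among them Pbx4 at 14.8% and 24.9%. Among Hox-like homeobox genes 3 of 12 were lower, Meox1 at 12.2% and 18.6%, Meox2 at 6.58% and 12.1%, and Pdx1 at 6.17% and 11.5%. Outside CCGG these 3 were under 5 points, with differences of -3.91, -4.57 and -3.58. So were Ash2l with -4.30 and Kmt2b, also called over all CpGs, with -3.11. Pbx4, with 8 CpGs in all, had too few outside CCGG to be tested. In the retinoic acid and patterning group 1 of 13 was lower, Rarb, a retinoic acid receptor, at 25.8% and 33.0%. Evx2, the homeobox gene beside Hoxd13, was at 3.28% and 3.99%.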

How the data were processed

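CpG methylation was measured in 2 libraries, 1 per line. The submitters' processing notes name BSMAP and mm10. For the aligner's version, trimming and duplicate removal, nothing was given in the sources used here. As the file headers show, the authors deposited for each CpG a methylation fraction and the counts of all and of methylated reads. Levels were recomputed from the deposited counts.

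Motifs were read from the sequence that the tables give around each CpG. Gene positions came from RefSeq GRCm38.p6, with starts and strands from its promoter table. Exons and UTRs were not used here. Fisher's exact test, two-sided, compared summed reads per gene, interval or promoter (at least 5 CpGs) and per CpG, with Benjamini-Hochberg adjustment over all units of a kind. The tests were checked on simulated data. The labels name no separate cultures, and no replicate exists.

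The Hox genes and the gene list were chosen with earlier results of these data known. Values in full are given for the 6 highest and 4 lowest Hox genes, the 6 with the largest difference, the 4 intervals highest and the 4 most different, called genes, intervals and promoters, up to 6 called CpGs and up to 4 called list members per group. Some results that this rule selects are left out of the text. Alternatives varied read and CpG minimums, CCGG, weighting, size of difference, overlaps, flanks and promoter bounds. Python 3.11.15, numpy 2.4.6, pandas 2.3.3, scipy 1.17.1 and matplotlib 3.10.9 were used.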

Additional observations from a re-analysis of the deposited data

How the results depend on the processing

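No paired analysis was possible because each line has 1 library. Counts below are of units lower in A129-2. With a minimum of 5 reads, 1 Hox interval was called, without Hoxc12-Hoxc11, and with a minimum of 20 reads, 1 promoter, without Hoxa6. Without CCGG the calls were 0 gene bodies, 1 interval, 0 promoters, 7 genes of the Hox-linked list and 0 CpGs. With no minimum size they were 28 gene bodies, 9 intervals, 5 promoters and 53 list genes. Asking for at least 10 points left 0 gene bodies, 0 intervals, 0 promoters and 3 list genes, and gave 38 CpGs. Asking for at least 10 CpGs left 1 promoter, leaving out CpGs of more than 1 Hox gene left 1 gene body of 34, and the 300-base promoter window left 0. The last 3 rest on fewer CpGs. Shares of all units are given above for calls without CCGG, for those with no minimum size, and for CpGs at 10 points. For the other settings of this paragraph no such share is given, so their counts cannot be set against the genome.

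Differences are in points, A129-2 first. Gene body minus interval became -0.92 and -1.85 without CCGG. In AOS-14 it was -3.58 weighted by reads, -3.56 without CpGs in other RefSeq genes and -3.30 without CpGs near known starts. Posterior minus anterior became -1.41 and -1.82 without CCGG, -1.57 and -2.32 weighted by reads, -2.56 and -3.17 without CpGs of more than 1 Hox gene, -1.27 and -1.21 as a mean over genes, and -1.90 in A129-2 with a minimum of 20 reads. Cluster minus flanks turned to -0.15 in A129-2 (0.29 in AOS-14) with a minimum of 20 reads, to -0.83 and -0.63 weighted by reads, to -1.05 and -1.74 with 10 kb flanks and to -0.64 and -1.32 with 50 kb flanks. The cause of these changes was not tested. Differences at 129Sv sequence variants were not tested. With minimums of 5 and 20 reads, 7 and 6 cluster CpGs were called.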
